A study of Mus musculus with 12 samples.

Results

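The 7 genes described here, Bcl6, Il21, Cxcr5, Icos, Sh2d1a, Slamf6 and Ascl2, are the core genes of T follicular helper (Tfh) cells, and they were taken by symbol from the 45777 genes of the deposited table. Each symbol matched 1 row. RNA-seq was performed on mouse CD4+ T cells of the spleen in 12 libraries, 3 for each of 4 groups, to ask how the bacterium Lactobacillus acidophilus (L. acidophilus) and the immunosuppressant FK506 (tacrolimus, a calcineurin inhibitor) act on activated T cells alone and together. One group received anti-CD3 and nothing else (anti-CD3 alone), and the other 3 received in addition L. acidophilus, FK506 or both agents (the combination). All 12 libraries share the anti-CD3 stimulation, an antibody that triggers the T-cell receptor, at 0.5 ug/ml for 3 days. The labels name wild type Balb/c mice aged 7 weeks, whereas the methods of the study name B6 mice that were older, and the strain could not be settled here. The methods describe the bacterium as heat-inactivated and the CD4+ cells as selected with magnetic beads, and their part on these libraries gives no dose of either agent, while the doses they give elsewhere are for other cultures and for mice. Nothing says that the 3 libraries of a group came from separate mice, so the p-values measure the spread between libraries, which may be technical.

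Tfh cells are the CD4+ T cells that enter B-cell follicles and help B cells in the germinal centre to mature their antibodies. The repressor Bcl6 sets up the programme, the chemokine receptor Cxcr5 guides the cell into the follicle, the costimulatory receptor Icos and the SLAM receptors with their adapter Sh2d1a keep contact with the B cell, and the cytokine IL-21 acts on the B cell. Naive and recently activated T cells in culture carry parts of this programme without being Tfh cells, and B cells themselves express Bcl6, Cxcr5 and Slamf6.

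Library totals lay between 45416397 and 64658165 counts, and the 4 libraries numbered replicate 1 were the deepest, with at least 63113961 counts against at most 54245588 in the other 8. As a check of the label, the summed level of 7 CD4 T-cell markers, Cd3e and Cd4 among them, ran from 1202 to 1963 FPKM (fragments scaled to the length of the transcript and to the size of the library). In edgeR 0 of the 7 were called at 2-fold between any pair of groups compared, with 5 under an unadjusted p of 0.05 in the combination against anti-CD3 alone, and Cd4 itself was called for the departure of the combination from added single effects (0.67 on the log2 scale, adjusted p = 0.0219). The markers of B cells did differ. The summed level of 10 B-cell markers was 39.8 to 65.4 FPKM with anti-CD3 alone, 26.8 to 38.3 when L. acidophilus was added, 238 to 479 under FK506 and 138 to 165 in the combination, and the defining markers, Ms4a1, Cd79a and Pax5 among them, were above 0 in every group. The summed level of 10 myeloid markers was 2.53 to 4.17, 3.83 to 9.43, 6.99 to 21.8 and 54.4 to 93.2 FPKM in the same order of groups, and the defining marker Csf1r was at 0 with anti-CD3 alone. Of 2 CD8 T-cell markers, Cd8a was called higher with FK506 than with anti-CD3 alone (log2 fold change 2.38, edgeR adjusted p = 0.0123). It was called lower in the combination than with FK506 (-1.98, edgeR adjusted p = 0.0269), and its highest group mean was 1.23 FPKM. Cd8b1 was called in no comparison. In such bulk libraries fewer cells of a type and less RNA per cell cannot be told apart.

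Il21 and Bcl6 moved in opposite directions with FK506, and the bases before their start sites are printed to show where the NFAT core occurs, since calcineurin, the target of FK506, activates the NFAT factors. The windows hold the 250 bases before a start site in RefSeq on GRCm38.p6, read 5′ to 3′ on the strand of the gene, with GGAAA or its complement TTTCC in capitals. Of the 7 genes, 4 had an entry in the promoter table used here, namely Bcl6, Il21, Slamf6 and Ascl2. The Il21 window lies at chr3:37232637-37232886 on the minus strand. The first Bcl6 window lies at chr16:23988853-23989102 on the minus strand and the second, before an alternative start inside the gene, at chr16:23981284-23981533 on the minus strand.
Il21: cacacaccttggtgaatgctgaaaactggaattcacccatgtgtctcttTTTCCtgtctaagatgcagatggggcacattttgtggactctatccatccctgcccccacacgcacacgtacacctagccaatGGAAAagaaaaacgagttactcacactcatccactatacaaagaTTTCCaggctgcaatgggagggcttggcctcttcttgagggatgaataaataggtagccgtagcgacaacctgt
Bcl6 first window: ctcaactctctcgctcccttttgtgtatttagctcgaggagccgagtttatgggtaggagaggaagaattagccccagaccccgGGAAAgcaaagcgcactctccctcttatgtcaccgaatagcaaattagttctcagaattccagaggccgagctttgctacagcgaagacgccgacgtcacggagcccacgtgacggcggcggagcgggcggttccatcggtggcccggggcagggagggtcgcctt
Bcl6 second window: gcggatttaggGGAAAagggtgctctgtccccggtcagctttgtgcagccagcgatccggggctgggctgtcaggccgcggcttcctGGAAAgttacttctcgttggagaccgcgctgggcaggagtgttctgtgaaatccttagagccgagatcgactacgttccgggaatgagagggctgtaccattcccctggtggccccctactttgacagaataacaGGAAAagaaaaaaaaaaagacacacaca

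The Il21 window holds 3 NFAT cores, which begin 201, 118 and 74 bases before the start. The first Bcl6 window holds 1 NFAT core and the second holds 3, whereas the windows of Slamf6 and Ascl2 hold none. The STAT motif TTCNNNGAA occurs once in the first Bcl6 window and at 3 places in the second, where the match that begins 168 bases before the start overlaps the NFAT core at 163, and it was not found in the Il21 window. The AP-1 motif TGANTCA was found in none of the windows of the 4 genes. Both strands were searched. Of 32841 windows of the same length, 55.6% hold the NFAT core, with a median of 1 match, 7.02% hold the STAT motif and 6.75% hold the AP-1 motif. A match describes the letters of a window and says nothing of binding.

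All 7 genes were above 0 in at least 3 libraries and entered the test, which covered 23585 genes. The genes followed different patterns, as the plot of their levels shows. Bcl6 rose in all 3 treated groups. Cxcr5 and Slamf6 rose in the groups with FK506, Sh2d1a rose in the combination alone among the 3 comparisons with anti-CD3, and Il21 fell with FK506 and fell much further in the combination. Icos and Ascl2 were called in no comparison by edgeR on all 12 libraries. A gene was called when its Benjamini-Hochberg adjusted p in edgeR's quasi-likelihood test across these genes was under 0.05 and the change was at least 2-fold.

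**Figure D1:**
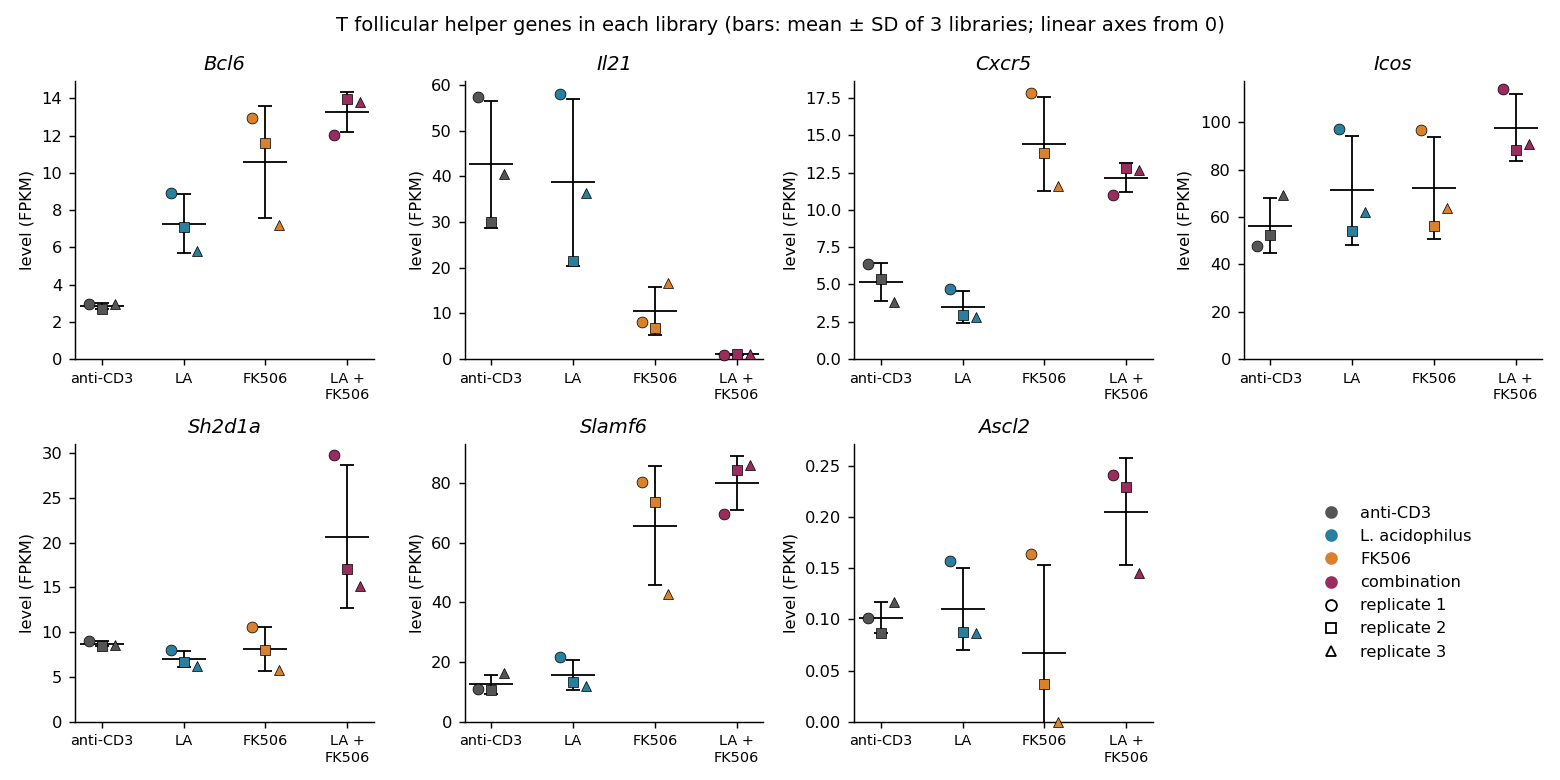
Level of each of the 7 genes (y axis, FPKM, linear from 0) in each library of the 4 groups (x axis, LA for L. acidophilus), with 1 symbol per replicate number and the mean ± SD of 3 libraries as bars (the SD bar of Ascl2 with FK506 runs below 0 and is cut there). The Il21 points fall from 30.0 to 57.4 FPKM with anti-CD3 alone to 0.942 to 1.11 FPKM in the combination, while the Bcl6 points rise from 2.69 to 2.97 to 12.0 to 14.0 FPKM.

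L. acidophilus alone against anti-CD3 alone gave 1 higher and 0 lower genes of the 7 in edgeR (1 lower, Cxcr5, at an unadjusted p under 0.05), against 0.157% of all genes tested called higher and 0.0297% called lower. With FK506 alone 3 of the 7 were called higher and 1 lower, where 6.44% and 4.12% of all genes were. The combination against anti-CD3 alone gave 4 higher and 1 lower, where 13.8% of all genes were called higher and 10.8% lower. Against FK506 alone, the combination had 1 of the 7 higher and 1 lower, beside 3.84% and 3.6% of all genes. Against L. acidophilus alone it had 3 higher and 1 lower, beside 9.93% and 6.64% of all genes. The comparisons share libraries and are not independent of each other. The last test asked whether the combination departed from what its 2 agents gave singly when their log2 changes were added, with an adjusted p under 0.05 and no condition on the fold. This departure from additivity was called positive for 1 of the 7 genes and negative for 1, beside 1.35% and 3% of all genes.

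The median log2 fold change of the 7 genes was 0.08 for L. acidophilus, 0.25 for FK506 and 1.01 for the combination against anti-CD3 alone, where the median over all genes tested was -0.005, -0.002 and 0.02. For the combination it was 0.34 against FK506 alone, where the median over all genes was 0.03, and 0.89 against L. acidophilus alone, where it was 0.001. Behind these medians stood genes that moved apart, since Il21 had the most negative change of the 7 in every comparison that included FK506 in 1 arm or both.

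**Figure D2:**
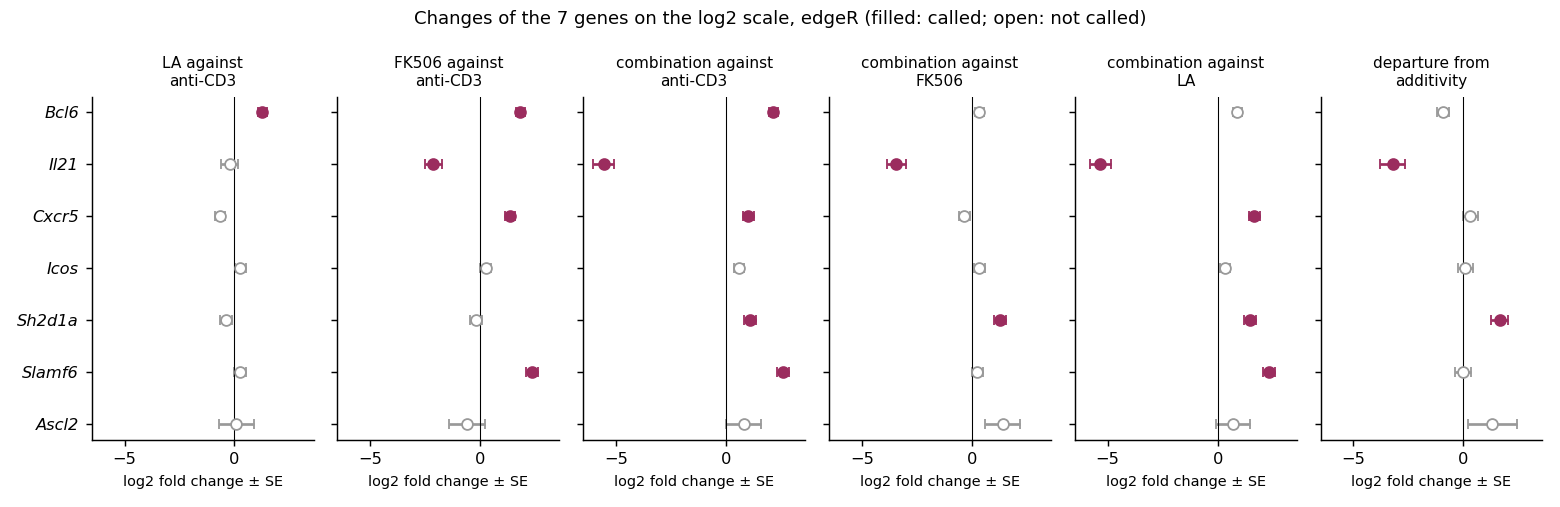
Log2 fold change ± SE from edgeR (x axis) of the 7 genes (rows) in the 5 comparisons and for the departure from additivity (panels, LA for L. acidophilus), with filled points for called genes. Only Bcl6 is filled for L. acidophilus alone, and Il21 and Sh2d1a are the filled points in the combination against FK506 and in the departure from additivity.

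Bcl6 (gene identifier 12053, chr16:23965050-23988866, minus strand, GRCm38.p6) encodes the transcriptional repressor on which Tfh identity depends. Its level was 2.96, 2.69 and 2.97 FPKM in replicates 1, 2 and 3 with anti-CD3 alone (mean 2.87 ± 0.160, SD, n = 3), from 558 to 807 counts. It was 8.93, 7.07 and 5.80 FPKM with L. acidophilus, 12.9, 11.6 and 7.20 FPKM with FK506, and 12.0, 14.0 and 13.8 FPKM with the combination. Every treated library was above every library with anti-CD3 alone, whereas the groups with FK506 and with the combination overlapped, as did those with L. acidophilus and FK506.

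The change of Bcl6 against anti-CD3 alone was 1.27 on the log2 scale with L. acidophilus (SE 0.21, edgeR adjusted p = 0.0367), 1.82 with FK506 (SE 0.21, adjusted p = 0.00027) and 2.16 with the combination (SE 0.21, adjusted p = 1.89e-05). In folds these were 2.41, 3.52 and 4.46. The combination exceeded L. acidophilus alone by 0.89 on the log2 scale (SE 0.20, edgeR adjusted p = 0.00553), which is 1.85-fold and under the fold cut-off, and it was just over it without TMM factors (1.02), with replicates 2 and 3 alone (1.05) and without replicate 1 of L. acidophilus (1.05). It exceeded FK506 alone by 0.34 (SE 0.20, edgeR adjusted p = 0.269), which did not pass. The departure from additivity was -0.93 (SE 0.29, edgeR adjusted p = 0.0930), and it was called by DESeq2 (-0.89, adjusted p = 0.0331) and by edgeR without replicate 3 of FK506 (-1.17, adjusted p = 0.0262). The rise with L. acidophilus is the least firm of these calls: with each library left out in turn it kept a log2 fold change of 1.10 to 1.41, but the adjusted p ran from 0.0148 to 0.137 and the call was lost in 8 of 12 cases. Without the 4 replicate 1 libraries its change was 1.15 (edgeR adjusted p = 0.160). B cells express Bcl6 too. Of the 10 B-cell markers 9 were called higher with FK506, 6 with the combination and 0 with L. acidophilus against anti-CD3 alone. These counts stand beside 6.44%, 13.8% and 0.157% of all genes. With L. acidophilus 5 of the markers were lower and 0 higher at an unadjusted p under 0.05. In the combination against FK506 alone 8 of them were called lower, beside 3.6% of all genes, where Bcl6 was not called. Within FK506, Bcl6 was 12.9, 11.6 and 7.20 FPKM beside marker sums of 479, 395 and 238 FPKM. Within the combination it was 12.0, 14.0 and 13.8 FPKM beside 138, 164 and 165 FPKM. The part of B-cell RNA in the changes of Bcl6 was not tested.

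Ascl2 (gene identifier 17173, chr7:142966822-142969264, minus strand), a basic helix-loop-helix factor that promotes Cxcr5 expression in Tfh cells, was close to the detection limit. Its counts were 13, 8 and 12 with anti-CD3 alone, 19, 9 and 9 with L. acidophilus, 20, 4 and 0 with FK506, and 29, 20 and 13 with the combination, where 3 counts were taken as the smallest detectable number. The highest level was 0.242 FPKM, in the first library of the combination. The counts of the groups overlapped, while the combination had a higher FPKM than anti-CD3 alone in every library, and a change between these groups was not detectable at this depth (log2 fold change 0.80, SE 0.78, edgeR adjusted p = 0.436). Without replicate 1 of FK506, where the other 2 libraries have 4 and 0 counts, the combination was called higher than FK506 alone (log2 fold change 3.05, edgeR adjusted p = 0.0386).

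Il21 (gene identifier 60505, chr3:37222759-37232636, minus strand) encodes the cytokine by which Tfh cells act on germinal centre B cells and on themselves. Its level was 57.4, 30.0 and 40.5 FPKM with anti-CD3 alone (mean 42.6 ± 13.8, SD, n = 3) and 58.0, 21.6 and 36.4 FPKM with L. acidophilus (38.7 ± 18.4). It was 8.10, 6.78 and 16.6 FPKM with FK506 (10.5 ± 5.31). In the combination it was 0.942, 1.11 and 1.04 FPKM (1.03 ± 0.0843), from 179 to 212 counts per library, well above the limit of 3 counts. The 3 libraries of the combination lay below every library with FK506 alone, which lay below every library without FK506, while the groups with anti-CD3 alone and with L. acidophilus overlapped. Il21, whose window printed above holds 3 NFAT cores, and Bcl6, whose windows hold 1 and 3, thus moved apart in the libraries with FK506.

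FK506 alone lowered Il21 by 4.37-fold (log2 fold change -2.13, SE 0.40, edgeR adjusted p = 0.00386). The combination lowered it by 47.3-fold against anti-CD3 alone (log2 fold change -5.56, SE 0.48, edgeR adjusted p = 9.97e-06), by 10.8-fold against FK506 alone (-3.44, SE 0.44, adjusted p = 0.000485) and by 40.5-fold against L. acidophilus alone (-5.34, SE 0.47, adjusted p = 3.70e-05). L. acidophilus without FK506 gave a log2 fold change of -0.22 (SE 0.38, edgeR adjusted p = 0.857). The change that L. acidophilus made beside FK506 therefore differed from the one it made without FK506, with a departure from additivity of -3.21 on the log2 scale (SE 0.57, edgeR adjusted p = 0.0130). It stayed called with each library left out in turn, at -3.52 to -2.71 (edgeR adjusted p 0.0111 to 0.0373).

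The balance of Il21 and Bcl6 within a library was lower in each treated group than with anti-CD3 alone. The FPKM ratio of Il21 to Bcl6 was 11.2 to 19.4 with anti-CD3 alone, 3.05 to 6.50 when L. acidophilus was added, 0.584 to 2.30 under FK506 and 0.0754 to 0.0796 in the combination. The 4 ranges did not overlap, but this ratio was not planned and restates the changes of both genes given above. Its fall with L. acidophilus rests mostly on the rise of Bcl6, whose call was not firm. Prdm1 encodes Blimp-1, the repressor that opposes Bcl6, and its level differed widely between the replicates of the groups other than the combination. It was 10.1, 1.48 and 2.44 FPKM with anti-CD3 alone, 12.6, 1.89 and 2.39 with L. acidophilus, 12.4, 4.85 and 4.58 with FK506, and 10.8, 10.3 and 10.2 with the combination. Replicate 1 was the highest of its group in every case, and the change in the combination against anti-CD3 alone did not pass over all libraries (log2 fold change 0.94, SE 0.78, edgeR adjusted p = 0.358). It was called with the replicate number as a block (1.56, edgeR adjusted p = 0.0172), with replicates 2 and 3 alone (2.19, adjusted p = 0.000401) and without replicate 1 of anti-CD3 alone (2.24, adjusted p = 0.0364). The FPKM ratio of Bcl6 to Prdm1 was 0.294, 1.82 and 1.22 with anti-CD3 alone, 0.710, 3.75 and 2.42 with L. acidophilus, 1.04, 2.39 and 1.57 with FK506, and 1.11, 1.35 and 1.36 with the combination, so that the 4 groups overlapped in this ratio.

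**Figure D3:**
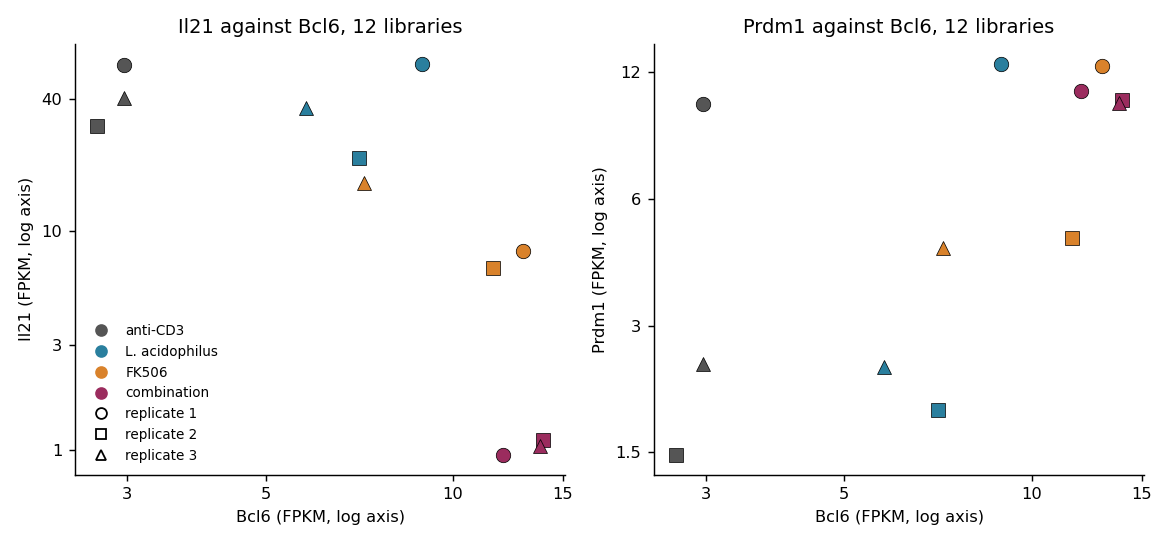
Level of Il21 (left) and Prdm1 (right) against Bcl6 in the 12 libraries (FPKM, log axes), with colours for groups and symbols for replicate numbers. The combination lies apart at 12.0 to 14.0 FPKM of Bcl6 with 0.942 to 1.11 FPKM of Il21, whereas Prdm1 is at 10.1 to 12.6 FPKM in the 4 replicate 1 libraries of all groups.

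Cxcr5 (gene identifier 12145, chr9:44511787-44526444, minus strand) encodes the receptor for CXCL13, the chemokine of the B-cell follicle. Its level was 6.37, 5.34 and 3.84 FPKM with anti-CD3 alone (mean 5.18 ± 1.27, SD, n = 3) and 4.71, 2.95 and 2.83 FPKM with L. acidophilus. It was 17.9, 13.8 and 11.6 FPKM with FK506 (14.4 ± 3.18) and 11.0, 12.8 and 12.6 FPKM with the combination (12.2 ± 0.997). The 6 libraries with FK506 were all above the 6 without it, and within each of these sets the groups overlapped.

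FK506 alone raised Cxcr5 by 2.55-fold (log2 fold change 1.35, SE 0.24, edgeR adjusted p = 0.00289). The combination raised it by 2.02-fold against anti-CD3 alone (1.01, SE 0.24, edgeR adjusted p = 0.00484) and by 3.18-fold against L. acidophilus alone (1.67, SE 0.24, adjusted p = 0.000372). The combination against FK506 alone was at -0.33 (SE 0.24, edgeR adjusted p = 0.359), L. acidophilus against anti-CD3 alone at -0.66 (SE 0.24, adjusted p = 0.232) and the departure from additivity at 0.32 (SE 0.34, adjusted p = 0.662), and none of them passed. The 2.02-fold change stood at the fold cut-off: under limma on log2(FPKM + 1) (0.95) and in edgeR without replicate 3 of anti-CD3 alone or replicate 2 of the combination it was under 2-fold, with an edgeR adjusted p of at most 0.0169 over all libraries left out in turn.

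B cells express Cxcr5. Of the 10 B-cell markers, edgeR called 9 higher with FK506 alone and 6 with the combination against anti-CD3 alone, beside 6.44% and 13.8% of all genes. In the combination against FK506 alone 8 were called lower, beside 3.6% of all genes, where Cxcr5 itself was not called. With L. acidophilus alone 0 were called, with 5 lower at an unadjusted p under 0.05 and 0 higher. The library with the highest summed B-cell marker level (479 FPKM, FK506 replicate 1) was also the one with the highest Cxcr5 level, and the library with the lowest (26.8 FPKM, L. acidophilus replicate 3) had the lowest. The part of B-cell RNA in the change of Cxcr5 was not tested.

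**Figure D4:**
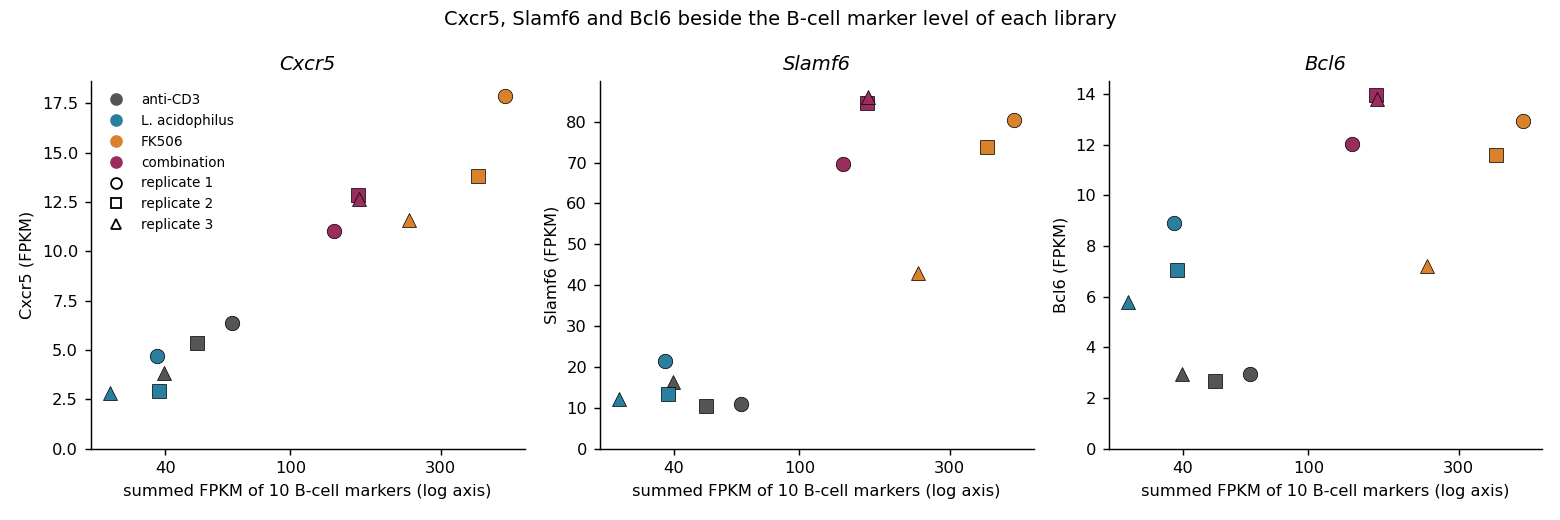
Level of Cxcr5, Slamf6 and Bcl6 (y axes, FPKM, linear from 0) against the summed level of 10 B-cell markers (x axes, FPKM, log) in the 12 libraries. The levels of all 3 genes with the combination, at 138 to 165 FPKM of the markers, overlap with those with FK506, at 238 to 479 FPKM of the markers.

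Icos (gene identifier 54167, chr1:60960773-61000322, plus strand), the inducible costimulator that sustains Bcl6 and movement into the follicle, had the highest mean level of the 7 genes over the 12 libraries, 74.4 FPKM. It was 47.6, 52.2 and 69.4 FPKM with anti-CD3 alone (mean 56.4 ± 11.5, SD, n = 3), 97.3, 54.2 and 62.3 FPKM with L. acidophilus (71.2 ± 22.9), and 96.9, 56.2 and 63.9 FPKM with FK506 (72.3 ± 21.6). In the combination it was 114.0, 88.2 and 90.9 FPKM (97.7 ± 14.2). The combination did not overlap with anti-CD3 alone, but its log2 fold change of 0.60 did not pass (SE 0.24, edgeR adjusted p = 0.0658), whereas limma on log2(FPKM + 0.1) called it (1.01, adjusted p = 0.00602). In the order of the means each group overlapped with its neighbour. The changes with L. acidophilus (log2 fold change 0.26, SE 0.24, edgeR adjusted p = 0.654) and with FK506 (0.25, SE 0.24, adjusted p = 0.519) were smaller than the spread between replicates.

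Regulatory T cells also carry Icos. Foxp3, their defining factor, was at 4.45 to 6.20 FPKM with anti-CD3 alone, 7.53 to 24.7 when L. acidophilus was added, 21.9 to 44.8 under FK506 and 95.7 to 107.5 with the combination. The summed level of 4 Treg markers, in which Il2ra dominates, was 414 to 659 FPKM over the 12 libraries with overlap between all groups. Of these 4 markers, Foxp3 and Ikzf2 were called higher and Il2ra lower by edgeR in the combination against anti-CD3 alone. The part of these cells in the levels of Icos was not tested.

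Slamf6 (gene identifier 30925, chr1:171917458-171948958, plus strand), also known as Ly108, is a SLAM-family receptor that binds itself on the facing B cell. Its level was 10.9, 10.5 and 16.2 FPKM with anti-CD3 alone (mean 12.6 ± 3.21, SD, n = 3) and 21.6, 13.5 and 12.1 FPKM with L. acidophilus (15.7 ± 5.12). It was 80.5, 73.7 and 42.9 FPKM with FK506 (65.7 ± 20.0) and 69.7, 84.5 and 86.1 FPKM with the combination (80.1 ± 9.07). All 6 libraries with FK506 were above all 6 without it, and within each of these sets the groups overlapped.

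FK506 alone raised Slamf6 by 5.11-fold (log2 fold change 2.35, SE 0.27, edgeR adjusted p = 0.000262). The combination raised it by 6.05-fold against anti-CD3 alone (2.60, SE 0.27, edgeR adjusted p = 2.71e-05) and by 5.10-fold against L. acidophilus alone (2.35, SE 0.27, adjusted p = 0.000101). These were the largest rises among the 7 genes in the comparisons concerned. The combination against FK506 alone differed by 0.24 on the log2 scale (SE 0.26, edgeR adjusted p = 0.557), and the departure from additivity was -0.003 (SE 0.36, adjusted p = 1). Departures well above this error could have been missed, since that of Bcl6 at -0.93 (SE 0.29, edgeR adjusted p = 0.0930) was not called. B cells express Slamf6 as well. In the combination the summed B-cell marker level was lower than with FK506 alone, 138 to 165 against 238 to 479 FPKM, at Slamf6 levels that overlapped. Within FK506, Slamf6 was 80.5, 73.7 and 42.9 FPKM beside marker sums of 479, 395 and 238 FPKM, and within the combination 69.7, 84.5 and 86.1 FPKM beside 138, 164 and 165 FPKM. The part of B-cell RNA in the change of Slamf6 was not tested.

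Sh2d1a (gene identifier 20400, chrX:42502565-42522097, plus strand) encodes SAP, the adapter that couples the SLAM receptors to the kinase Fyn and that Tfh cells need for lasting contact with B cells. Its level was 9.03, 8.49 and 8.58 FPKM with anti-CD3 alone (mean 8.70 ± 0.290, SD, n = 3), 8.04, 6.70 and 6.24 FPKM with L. acidophilus (6.99 ± 0.934), and 10.6, 8.01 and 5.73 FPKM with FK506 (8.11 ± 2.43). In the combination it was 29.8, 17.0 and 15.2 FPKM (20.7 ± 7.99). The 3 libraries of the combination were above all 9 others. The libraries with L. acidophilus were all just below those with anti-CD3 alone, a difference that did not pass (log2 fold change -0.38, SE 0.27, edgeR adjusted p = 0.543).

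The combination raised Sh2d1a by 2.16-fold against anti-CD3 alone (log2 fold change 1.11, SE 0.27, edgeR adjusted p = 0.00626), by 2.44-fold against FK506 alone (1.29, SE 0.28, adjusted p = 0.00759) and by 2.81-fold against L. acidophilus alone (1.49, SE 0.28, adjusted p = 0.00164). FK506 alone gave a log2 fold change of -0.18 (SE 0.27, edgeR adjusted p = 0.713). The departure from additivity was 1.67 on the log2 scale (SE 0.39, edgeR adjusted p = 0.0350). Much of this rested on replicate 1 of the combination, the highest library: without it the change was 0.71 against anti-CD3 alone (edgeR adjusted p = 0.0237) and 0.89 against FK506 alone (adjusted p = 0.0206), both under 2-fold, and with replicates 2 and 3 alone it was 0.75 against anti-CD3 alone (adjusted p = 0.0101). The departure lost its call in 7 of 12 cases when each library was left out in turn, at 1.27 to 1.90 on the log2 scale with edgeR adjusted p from 0.0316 to 0.0918. The summed level of the myeloid markers was highest in the combination too, at 93.2, 54.4 and 58.1 FPKM in its 3 libraries. Of the 8 tested markers edgeR called 5 higher there than with FK506 alone and 1, Itgax, lower, beside 3.84% and 3.6% of all genes. With FK506 alone against anti-CD3 alone 7 of the 8 were called higher, beside 6.44% of all genes, where Sh2d1a was not called. The part of these cells in the rise of Sh2d1a was not tested. NK cells express Sh2d1a as well. The summed level of 3 NK-cell markers was 0.428 to 2.13 FPKM over the 12 libraries with overlap between all groups, and it was 1.88, 1.13 and 1.35 FPKM in the combination, highest in the same replicate 1 as Sh2d1a. There the defining marker Ncr1 had 93, 0 and 10 counts. Of the 3 markers edgeR called 0 in the combination against FK506 alone, with 0 under an unadjusted p of 0.05, Klrb1c against anti-CD3 alone, and Klrb1c and Ncr1 against L. acidophilus alone, and their part was not tested either.

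The wider programme was described with 48 further genes from textbook knowledge, all of which were tested. With L. acidophilus alone edgeR called 0 of the 48, beside 0.157% of all genes called higher and 0.0297% lower. DESeq2 called 1 higher and 1 lower, beside 1.16% and 0.7%. In edgeR 14 were under an unadjusted p of 0.05 (8 higher, 6 lower), and the share over all genes was not computed. With FK506 alone 9 were called higher and 5 lower, beside 6.44% and 4.12% of all genes. With the combination 10 were called higher and 13 lower against anti-CD3 alone, beside 13.8% and 10.8% of all genes. The balance of this last count turned with the method: it was 11 higher and 13 lower with DESeq2, beside 14% and 10.2% of all genes. It was 14 and 7 without TMM factors, beside 16.8% and 7.75%, a setting that moved the median of all genes from 0.02 to 0.23 on the log2 scale. With limma on log2(FPKM + 1) it was 14 and 4, beside 5% and 4.57% of all genes, and on log2(FPKM + 0.1) it was 15 and 5, beside 9.91% and 9.84%. The combination against FK506 alone gave 2 higher and 3 lower, beside 3.84% and 3.6% of all genes, where DESeq2 gave 5 and 3, beside 4.74% and 3.83%, and both limma fits gave 5 and 2, beside at most 3.7% and 3.55%. Against L. acidophilus alone it gave 8 higher and 7 lower, beside 9.93% and 6.64% of all genes. The median log2 fold change of the 48 was -0.03 with L. acidophilus, 0.05 with FK506 and 0.22 with the combination against anti-CD3 alone, where the medians over all genes tested were those given above. The departure from additivity was called for 3 of the 48, positive for Cd84 and negative for Gpr183 and Il4, beside 1.35% and 3% of all genes.

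Among the 12 factors that act for the programme, 5 were called higher and 2 lower in the combination against anti-CD3 alone, beside 13.8% and 10.8% of all genes. Tcf7, which encodes TCF-1, an inducer of Bcl6, rose from 53.1 ± 16.1 FPKM (SD, n = 3) with anti-CD3 alone to 216 ± 37.3 FPKM in the combination (log2 fold change 1.77, edgeR adjusted p = 0.000121), and it rose with FK506 alone by 1.17 (adjusted p = 0.00519), a change that was under 2-fold without replicate 1 of anti-CD3 alone or replicate 2 of FK506 (lowest 0.93). Tox and Tox2, HMG-box factors of the Tfh programme, rose in the combination by 2.39 and 2.90 on the log2 scale against anti-CD3 alone (edgeR adjusted p = 0.000127 and 0.000249). They also rose against FK506 alone, by 1.34 and 1.59 (edgeR adjusted p = 0.0115 and 0.0190). These last calls were lost for Tox without replicate 3 of FK506 (edgeR adjusted p = 0.0630) and for Tox2 without replicate 2 or 3 of either group (adjusted p = 0.0525 to 0.0818). With FK506 alone against anti-CD3 alone, their calls were lost in 4 and 8 of the 12 fits that each left out 1 library (edgeR adjusted p up to 0.145 and 0.200). Tox was at 4.10 ± 1.88 FPKM with anti-CD3 alone, 6.54 ± 1.46 with L. acidophilus, 8.58 ± 2.59 with FK506 and 23.5 ± 4.70 with the combination (SD, n = 3).

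Batf, an AP-1 family factor, and its partner Irf4, which together act on Il21 in T cells, went the other way. Batf fell by 1.17 on the log2 scale with FK506 and by 1.97 with the combination (edgeR adjusted p = 0.0340 and 0.000842), from 253 ± 135 FPKM with anti-CD3 alone to 75.2 ± 19.1 FPKM. With FK506 alone the Batf groups overlapped, and the call was lost without replicate 2 of anti-CD3 alone or replicate 2 or 3 of FK506 (edgeR adjusted p up to 0.150), under both limma fits (-0.74 each, adjusted p = 0.0950 and 0.0817), with only the 2 groups compared and with replicates 2 and 3 alone. Irf4 fell by 1.33 in the combination against anti-CD3 alone (edgeR adjusted p = 0.000366) and by 1.12 against FK506 alone (adjusted p = 0.00392), whereas its change with FK506 alone was -0.21 (adjusted p = 0.519). Under limma on log2(FPKM + 1) the falls of Irf4 were -0.84 and -0.90, under 2-fold, as was the fall against FK506 in edgeR without replicate 3 of FK506 (-0.88) or replicate 1 of the combination (-0.93). Maf, which transactivates Il21, was higher in replicate 1 than in the other replicates in every group but the combination, at 27.6, 4.74 and 6.85 FPKM with anti-CD3 alone, and its change in the combination did not pass over all libraries (log2 fold change 0.85, SE 0.67, edgeR adjusted p = 0.330). It was called with the replicate number as a block (1.39, edgeR adjusted p = 0.0292), with replicates 2 and 3 alone (2.11, adjusted p = 0.000428) and without replicate 1 of anti-CD3 alone (2.07, adjusted p = 0.0181).

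Pou2af1, a coactivator shared by Tfh cells and B cells, rose with FK506 alone by 2.41 on the log2 scale (edgeR adjusted p = 0.000856) and was lower in the combination than with FK506 alone by -2.24 (adjusted p = 0.00135). It was at 25.4 ± 15.1 FPKM (SD, n = 3) with anti-CD3 alone, 17.6 ± 1.72 with L. acidophilus, 148 ± 37.8 with FK506 and 33.3 ± 6.10 with the combination. The B-cell markers were highest in the same FK506 group, and their part in this result was not tested.

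**Figure D5:**
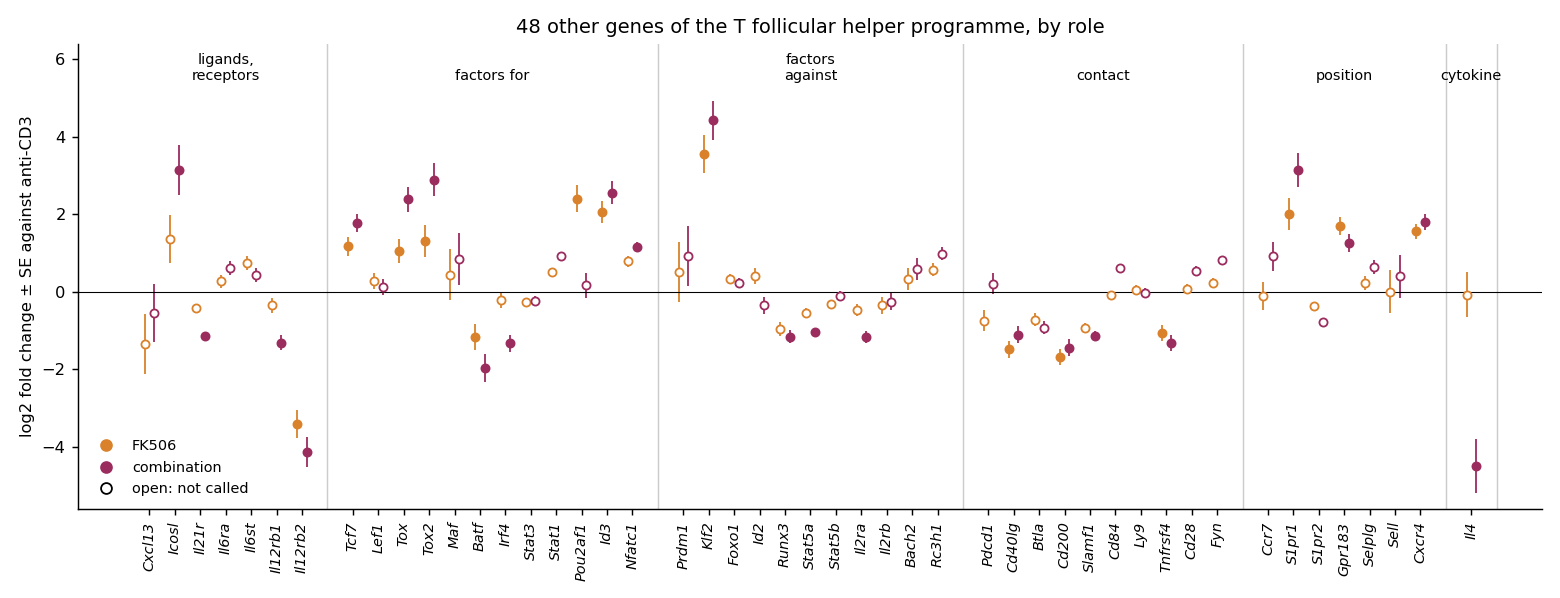
Log2 fold change ± SE from edgeR against anti-CD3 alone (y axis) of the 48 further genes (x axis, grouped by role) with FK506 and with the combination, filled where called. Among the factors for the programme Tcf7, Tox, Tox2 and Id3 are filled above 0 and Batf below 0 in both treatments, and among the contact molecules Cd40lg, Cd200 and Tnfrsf4 are filled below 0.

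Of the 11 factors and receptors that act against the programme, 1 was called higher and 3 lower in the combination against anti-CD3 alone, beside 13.8% and 10.8% of all genes. None of the 3 lower calls held without TMM factors or under either limma fit on FPKM. Il2ra, the high-affinity IL-2 receptor chain whose signal represses Bcl6, fell by 1.17 on the log2 scale (edgeR adjusted p = 0.000145), from 477 ± 67.3 to 245 ± 25.9 FPKM, and by 0.96 without TMM factors, under 2-fold. The other 2 lower genes were Runx3 and Stat5a, and the higher one was Klf2, a factor that keeps T cells out of the follicle. Klf2 rose by 4.43 on the log2 scale (SE 0.50, edgeR adjusted p = 4.48e-05), from 1.82 ± 1.14 to 44.0 ± 25.6 FPKM. With FK506 alone it rose by 3.56 (SE 0.49, edgeR adjusted p = 0.000683). These were the largest rises among the 48 genes in both comparisons.

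The 10 surface molecules of contact with B cells held 4 genes called in the combination against anti-CD3 alone and 3 called with FK506 alone, and each of them was lower, beside 10.8% and 4.12% of all genes called lower. In the combination limma on log2(FPKM + 1) called 1 lower, Cd200, and edgeR without TMM factors 2, beside 4.57% and 7.75% of all genes. With FK506 alone each of these 2 methods called 2 lower, beside 1.62% and 3.41% of all genes. Cd40lg, the CD40 ligand through which Tfh cells license B cells, fell by 1.48 on the log2 scale with FK506 (edgeR adjusted p = 0.00113) and by 1.11 with the combination (adjusted p = 0.00175), from 20.0 ± 2.83 FPKM to 7.71 ± 0.973 and 10.6 ± 2.32 FPKM. The fall in the combination was -0.90 without TMM factors, under 2-fold. Cd200, Slamf1 and Tnfrsf4 were the other 3 called lower in the combination. Pdcd1, which encodes PD-1, was not called against anti-CD3 alone, where its 3 libraries ranged from 22.8 to 59.9 FPKM. It was higher in the combination than with FK506 alone by 0.96 (edgeR adjusted p = 0.0272), under 2-fold, and was called without TMM factors (1.06), under both limma fits (1.13 and 1.16), with replicates 2 and 3 alone (1.03) and without replicate 1 of the combination (1.04). Without replicate 1 of anti-CD3 alone it was called lower with FK506 (edgeR adjusted p = 0.0122), and its departure from additivity was called there, without replicate 2 of anti-CD3 alone, and by DESeq2 (1.27, adjusted p = 0.0143). Cd84, a further SLAM receptor that signals through Sh2d1a, showed a positive departure from additivity (0.65, SE 0.15, edgeR adjusted p = 0.0358), with 52.6 ± 2.05 FPKM in the combination and group means of 28.9 to 31.6 FPKM elsewhere. This call was lost in 9 of the 12 fits that each left out 1 library (edgeR adjusted p up to 0.114), without TMM factors and with replicates 2 and 3 alone.

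Among the 7 ligands and partners of the members, 1 was called higher and 3 lower in the combination against anti-CD3 alone, beside 13.8% and 10.8% of all genes. Under both limma fits on FPKM 1 was lower, beside 4.57% of all genes on log2(FPKM + 1) and 9.84% on log2(FPKM + 0.1). Il21r, the receptor of IL-21, fell by 1.14 on the log2 scale (SE 0.10, edgeR adjusted p = 1.04e-05), from 128 ± 6.45 to 67.0 ± 1.87 FPKM (SD, n = 3). Without TMM factors this fall was -0.93 and under limma on log2(FPKM + 1) -0.66, both under 2-fold. Icosl, the ligand of Icos, which B cells and myeloid cells display, rose by 3.14 (SE 0.65, edgeR adjusted p = 0.00221), from 0.449 ± 0.278 to 4.63 ± 1.36 FPKM. Of the 8 myeloid markers that could be tested 7 were called higher in the combination, and of the 10 B-cell markers 6, beside the same 13.8% of all genes. The part of these cells in the rise of Icosl was not tested. Cxcl13, the ligand of Cxcr5, had 0 to 35 counts per library and was called in no comparison (edgeR adjusted p = 0.593 for the combination against anti-CD3 alone).

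Of the 7 genes of position in the lymph node, those called in the combination against anti-CD3 alone were Cxcr4, Gpr183 and S1pr1, and the same 3 were called with FK506 alone, each of them higher, beside 13.8% and 6.44% of all genes called higher. Both limma fits called 5 of the 7 higher in the combination, beside 5% of all genes on log2(FPKM + 1) and 9.91% on log2(FPKM + 0.1). Gpr183, the receptor that draws lymphocytes to the outer follicle, had a negative departure from additivity (-1.29, SE 0.32, edgeR adjusted p = 0.0455), with 8.74 ± 1.97 FPKM with anti-CD3 alone, 16.6 ± 2.02 with L. acidophilus, 30.6 ± 3.88 with FK506 and 23.9 ± 8.49 with the combination (SD, n = 3). The departure was lost in 10 of the 12 fits that each left out 1 library (edgeR adjusted p up to 0.104), and the rise of Gpr183 in the combination was under 2-fold without its replicate 1 (0.90).

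Il4, the second cytokine of Tfh cells, was low in the combination like Il21, while its levels with FK506 alone overlapped with those with anti-CD3 alone. It was at 60.2, 20.9 and 24.5 FPKM with anti-CD3 alone, 91.0, 17.7 and 22.0 with L. acidophilus, 36.9, 23.4 and 49.5 with FK506, and 1.85, 1.27 and 2.23 with the combination. Its log2 fold change was -4.50 in the combination against anti-CD3 alone (SE 0.70, edgeR adjusted p = 0.000327) and -0.07 with FK506 alone (SE 0.58, adjusted p = 0.975), with a departure from additivity of -4.63 (SE 0.89, adjusted p = 0.0173). The departure was lost without replicate 2 of the combination (edgeR adjusted p = 0.0542). The libraries of the combination were below all 9 others.

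The genes whose pattern over the 12 libraries was closest to each member were found by the root-mean-square difference of log2(FPKM + 1), each gene centred on its mean, among 12215 genes with a mean of at least 1 FPKM. For Bcl6 they included Car2 (0.23) and Gm9522 (0.24), where Bcl6 itself varied by 0.74 about its mean. For Il21 they were Serpinf1 (0.49), Scd2 (0.51) and Fads2 (0.53), beside its own 1.81. For Cxcr5 they were Unc93b1 (0.16), Ighv1-64 (0.21) and Irf8 (0.21), beside its own 0.78. Ighv1-64 is an immunoglobulin heavy-chain segment and Irf8 a factor of B cells and myeloid cells. For Slamf6 they were Gm35363 (0.19), Myo1e (0.20) and Sytl2 (0.25), beside its own 1.20. For Sh2d1a they were Zbtb46 (0.18), Fth1 (0.18) and Sla2 (0.20), beside its own 0.61, and for Icos Hsd3b7 (0.18), mt-Rnr2 (0.19) and Tmem126b (0.19), beside its own 0.40. Ascl2 varied by only 0.09 on this scale, so that its closest genes, Cfap36, Hgs and Dync1li1 (0.06 each), are simply genes of flat level. No member was closest to a gene of the wider list.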

How the data were processed

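RNA-seq of 12 libraries of mouse CD4+ T cells was used, 3 per group, with groups taken from the treatment labels. The authors deposited 1 table of 45777 genes named by NCBI identifier and symbol. The deposited counts are whole numbers that were not normalized, and may be rounded estimates. The authors also deposited FPKM, scaled to transcript length and library size, whose distributions differ between libraries (99th percentile from 108 to 158 FPKM), whereas quantile normalization, which the methods describe, makes them equal. Per the submitters' processing notes, bcl2fastq 2.20.0, Trimmomatic, HISAT2 2.1.0 and StringTie 2.1.3b were used with mm10 (GRCm38). The 12 TPM columns were not used.

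Counts were tested in R 4.3.3 with edgeR 4.0.16 (quasi-likelihood test, TMM factors, 1 mean per group over all 12 libraries) on 23585 genes with a count above 0 in 3 libraries or more, with Benjamini-Hochberg adjustment over all of them, and the script was tested on simulated data. SE was derived from the log2 fold change and its F statistic (their quotient after taking the root of F). Levels are FPKM as mean ± SD. No replicate pair agreed within sampling noise, but the pairs were not alike. By chi-squared per degree of freedom, replicates 2 and 3 differed by 4.52 in the combination and by 8.95 with L. acidophilus. All other pairs within a group gave 43.7 to 188. In both groups replicate 1 thus stood further from replicates 2 and 3 than these stood from each other. DESeq2 1.42.0, limma 3.58.1 (on log2 FPKM that was quantile-normalized here) and other settings were alternatives. Python 3.11.15 with matplotlib 3.10.9 drew the figures.

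The members and gene lists were chosen with earlier results of these data known. Named beside the members were the genes of the wider list called in the combination against FK506 alone or in the departure from additivity, 10 further genes whatever their result (Prdm1, Tcf7, Maf, Batf, Pdcd1, Cd40lg, Il21r, Icosl, Cxcl13, Il2ra) and the 3 genes closest to each member, of which 1 is not reported here. Runx3, Stat5a, Id3, Cd200, Slamf1, Tnfrsf4, Cxcr4 and S1pr1 are named only as the genes behind a count, after their values were seen. Klf2 was likewise named after its values were seen, and these are given. Gene positions and promoter windows came from RefSeq on GRCm38.p6.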

Additional observations from a re-analysis of the deposited data

Results flagged for a closer look

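For Il21 and Sh2d1a the effect of L. acidophilus beside FK506 differed from its effect without FK506 by the test of the difference itself. The difference was -3.21 on the log2 scale for Il21 (edgeR adjusted p = 0.0130), with a change of -3.44 beside FK506 and -0.22 without it. For Sh2d1a it was 1.67 (edgeR adjusted p = 0.0350), with a change of 1.29 beside FK506 and -0.38 without it. The call for Sh2d1a was lost in 7 of 12 cases of 1 library left out (edgeR adjusted p up to 0.0918), and without replicate 1 of the combination the change beside FK506 was 0.89. With 3 libraries a group, no library was tested for standing apart from its group.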

How the results depend on the processing

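Over the settings tried, the 18 calls of the 7 genes kept direction and side of the threshold in 369 of 392 cases and dropped below it in 23, and none changed sign. Values of these genes that were not called stayed so with the same sign in 477 of 518 cases, were called in 8 and changed sign in 33. The number of the 7 genes called with L. acidophilus alone fell from 1 to 0 with only the 2 groups compared, where 0 of 20979 genes were called and Bcl6 was at 1.28, and with replicates 2 and 3 alone, where 2 genes were called higher and 1 lower of 22096 and Bcl6 was at 1.15. With each library left out in turn, the numbers called of the 7 were 0 to 1 with L. acidophilus, 1 to 3 for the combination against FK506 and 1 to 2 for the departure from additivity, and of the wider list 0 to 1, 9 to 14 with FK506, 2 to 7 and 0 to 5.

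For the wider list, L. acidophilus alone gave 2 calls with DESeq2 and 1 each with filterByExpr, with no filter and with limma on log2(FPKM + 0.1). Over all genes DESeq2 called 1.16% higher and 0.7% lower, and the other settings named called at most 0.324% and 0.145%. With no fold cut-off, 24 were called with FK506 alone, 16 for the combination against FK506 and 28 against L. acidophilus, beside 19%, 19.1% and 33.6% of all genes. DESeq2 called 8 for the combination against FK506 and 8 for the departure, and limma on log2(FPKM + 1) called 6 for the departure. Over all genes the departure was called positive and negative for 4.62% and 5.47% with DESeq2 and for 3.71% and 3.86% with that limma fit, against 1.35% and 3% in edgeR. The replicate block called 6 for the departure, beside 2.46% of all genes positive and 4.23% negative, and moved no other total of the 7 genes or of the whole wider list by over 1.5 times. Among the genes named it also called Prdm1 and Maf in the combination against anti-CD3 alone, Prdm1 against L. acidophilus alone, Icosl with FK506 alone and in the combination against FK506, and the departures of Icosl, Irf4 and Pou2af1. DESeq2 also called these departures, and Icosl in the combination against FK506 was called in 7 of the 9 settings that left out no single library, the block included. The correlation across genes of the deviations of same-numbered libraries was 0.0995 to 0.369 over the 6 pairs numbered 1, but -0.0488 to 0.218 for number 2 and 0.0323 to 0.243 for number 3, and over 0.1 in 10 of 18 pairs in all, where pairs of different number had a mean of -0.0703. All 4 libraries numbered 1 correlated best with one of their own number, as did 2 of 4 numbered 2 and 3 of 4 numbered 3. The deviations were centred within each group, so the mean for different numbers is not separate from that for same numbers. Since not every pair was over 0.1, the numbers were not taken as pairing. This rule was not planned and is no test of pairing or batch, neither of which was tested.

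Changes of sign touched only values that were not called. With replicates 2 and 3 alone, Icos was at -0.12 with L. acidophilus and -0.10 with FK506, Slamf6 and Ascl2 at -0.19 and -0.18 with L. acidophilus, and the departure of Slamf6 at 0.65. That departure was 0.039 with DESeq2, 0.024 without TMM factors, 0.005 with filterByExpr, 0.068 with the replicate block, and 0.26 and 0.25 with limma at pseudocounts 1 and 0.1. Ascl2 with L. acidophilus was at -0.009 with the replicate block and -0.014 and -0.075 with limma. Leaving out 1 library gave -0.638 to 0.078 for Il21, -0.026 to 0.426 for Icos, -0.10 to 0.42 for Slamf6 and -0.22 to 0.22 for Ascl2 with L. acidophilus, -0.006 to 0.40 for Icos and -0.41 to 0.048 for Sh2d1a with FK506, and departures of -0.075 to 0.376 for Icos and -0.23 to 0.35 for Slamf6. The causes were not tested. Depth limits Ascl2 and Cxcl13, with at most 29 and 35 counts per library, Icosl, with 13 to 155 without FK506, and the myeloid and NK-cell markers, several of which had 0 counts in some libraries.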
